A study of Homo sapiens with 6 samples.

Results

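The replicate 2 arrays of a SMAD3 knockdown experiment in TPC-1 cells are described here against the replicate 1 and 3 arrays. They were taken by the replicate number in the sample titles, which gives 2 of the 6 arrays, 1 with si-SMAD3 and 1 with si-Control, against 4 arrays, 2 with each siRNA. TPC-1 is an established human papillary thyroid carcinoma line. Per the labels' protocols, cells in 6-well plates at about 85% confluence received 25 pmol of siRNA with 4.5 ul of RNAiMAX lipofectamine and were harvested after 24 h. The whole experiment was run at 3 different times to give the 3 replicates. Replicate 1 and replicate 3 used the same line, the same siRNAs and the same protocol as replicate 2, and the labels name no other difference between the times. A single line stands for the disease in all groups. RNA had integrity numbers above 9 and was hybridised to Affymetrix whole-transcript arrays.

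Replicate 2 was selected on the measured log2 values themselves, because its arrays stood apart in these same data. On the first principal component, which held 29.3% of the variance, replicate 2 scored 39.5 with si-SMAD3 and 23.6 with si-Control. The si-SMAD3 arrays scored -6.15 in replicate 1 and -6.50 in replicate 3, and the si-Control arrays -28.1 in replicate 1 and -22.4 in replicate 3. On the second component, with 20.9% of the variance, the replicate 2 arrays lay at opposite ends. They had the highest score with si-SMAD3 (22.7) and the lowest with si-Control (-36.3). The contrast of replicate 2 with the others is therefore a description throughout, with no p-value. A gene is called higher or lower in replicate 2 where both of its arrays lie outside all 4 others and the difference, fitted with siRNA as a covariate, is at least 1 on the log2 scale, which is 2-fold. Levels are the deposited log2 values. Each error beside a difference is limma's moderated standard error, which borrows from the spread of all genes and is not the gene's own spread alone.

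Proliferating cells copy DNA in S phase under E2F transcription factors, which drive cyclin E, the replication machinery and, with it, the histone genes whose products package new DNA. MYC drives the making of ribosomes and nucleotides during growth. HIF factors drive glycolysis and adaptation when oxygen falls, FOXO factors act when growth-factor signalling falls, and YAP with TEAD drives growth genes in cells that are spread and not crowded.

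Of 20590 genes with a mean level at or above the array floor, called measured here, 111 were higher in replicate 2 (0.539%) and 130 were lower (0.631%). That floor, 3.93, is the median over all probe sets of their mean level and is not a background level. The negative control probe sets averaged between 4.28 and 4.54 on the arrays, so a measured gene can lie below them. Without the size threshold, both replicate 2 arrays lay above the other 4 for 9.38% of genes and below them for 9.57%. The median difference over all genes was 0.01. The genes just past the limit were EPAS1, ADCY5 and DMAP1 on the high side and TRIAP1, ADAT2 and H2BC13 on the low side. Just short of it were TMEM163, TOB1 and SNORD119, and ATAD5, RFC4 and CENPK. Protein-coding genes made up 88 of the higher genes and 118 of the lower ones.

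Genes of S phase entry and DNA replication were lower in replicate 2. Of 44 listed genes 43 were measured, 42 had a difference below 0, and 36 had both replicate 2 arrays below the other 4, against 9.57% of all genes. The median difference was -0.88, against 0.01 for all genes, and 12 members were called lower (0.631% of all genes). MCM3, a subunit of the replicative helicase, was the 1 member with a difference above 0. PRIM1, the small catalytic subunit of primase, which makes the RNA primers of DNA synthesis, had levels of 8.26 with si-SMAD3 and 8.33 with si-Control in replicate 2, against 10.01 (si-SMAD3) and 10.18 (si-Control) in replicate 1, and 9.71 (si-SMAD3) and 9.85 (si-Control) in replicate 3. Both replicate 2 arrays were well under the lowest of the others, and the difference was -1.64 ± 0.20. The 250 bases before the PRIM1 start site (RefSeq, GRCh38.p14, chr12:56752324-56752573, minus strand) are shown because PRIM1 had the largest difference of the called replication genes that hold an E2F motif there, which is in capitals.
PRIM1: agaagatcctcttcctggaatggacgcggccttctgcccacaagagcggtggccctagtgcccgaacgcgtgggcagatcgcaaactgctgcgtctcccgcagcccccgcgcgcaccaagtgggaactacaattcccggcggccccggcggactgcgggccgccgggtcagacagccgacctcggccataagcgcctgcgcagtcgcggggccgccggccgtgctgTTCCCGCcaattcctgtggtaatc
The motif was searched on both strands in 4 forms. The first form was TTCCCGC. The second form was TTGGCGC. The third form was TTCGCGC. The last form was TTGCCGC. It lay before the start of 19 of the 37 replication genes with a promoter in the table (51.4%), 4 of the 10 called ones among them, and of 11 of 45 genes of G2 and mitosis (24.4%), against 11.02% of all 27305 promoters.

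Other called replication genes showed the same separation. CCNE2, cyclin E2, which drives entry into S phase, had levels of 9.37 with si-SMAD3 and 9.17 with si-Control in replicate 2, against 10.79 (si-SMAD3) and 10.68 (si-Control) in replicate 1, and 10.80 (si-SMAD3) and 10.55 (si-Control) in replicate 3. CDC6, which loads the helicase at origins, had levels of 10.26 with si-SMAD3 and 9.86 with si-Control in replicate 2, against 11.22 (si-SMAD3) and 11.37 (si-Control) in replicate 1, and 11.45 (si-SMAD3) and 11.86 (si-Control) in replicate 3. Their differences were -1.44 ± 0.18 and -1.42 ± 0.24, with no overlap between the groups. CDC45, a helicase cofactor, differed by -1.27 ± 0.22, and E2F8, an E2F family repressor that is itself expressed in S phase, by -1.34 ± 0.29. The remaining called members were MCM2, GINS1, POLA2, CLSPN, UHRF1, CHAF1A and CHAF1B. MCM6 had levels of 8.0 with si-SMAD3 and 9.16 with si-Control in replicate 2, against 8.94 (si-SMAD3) and 9.84 (si-Control) in replicate 1, and 9.13 (si-SMAD3) and 9.91 (si-Control) in replicate 3. For MCM6 the ranges overlapped, while within each siRNA the replicate 2 array was the lowest.

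Genes of G2 and mitosis had smaller differences. All 53 were measured, 45 had a difference below 0, none was called, and the median was -0.29. For 20 both replicate 2 arrays lay below the others (9.57% of all genes), and for 2 above (9.38%). CCNB1, the mitotic cyclin B1, had levels of 13.30 with si-SMAD3 and 13.07 with si-Control in replicate 2, against 13.25 (si-SMAD3) and 13.23 (si-Control) in replicate 1, and 13.30 (si-SMAD3) and 13.27 (si-Control) in replicate 3. These values overlap, and the difference was -0.08 ± 0.18. MKI67, the proliferation antigen Ki-67, was lower on both replicate 2 arrays, at 14.45 with si-SMAD3 and 14.64 with si-Control, against 14.95 (si-SMAD3) and 15.27 (si-Control) in replicate 1, and 14.93 (si-SMAD3) and 15.13 (si-Control) in replicate 3. The members with the largest differences were CENPI, a centromere protein (-0.95 ± 0.26), CCNF, cyclin F (-0.91 ± 0.28), and AURKB, the Aurora B kinase (-0.88 ± 0.19). The difference of CCNF was -1.37 without the si-SMAD3 array of replicate 2 and -0.46 without its si-Control array. The cell cycle homology region, searched on both strands as TTTGAA and, in its other form, as TTCGAA, lay before 22 of the 45 promoters of this group (48.9%) and before 2 of 37 of the replication genes (5.41%), against 14.6% of all promoters.

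Among cell cycle inhibitors and genes of the resting state, 14 of the 24 measured had a difference above 0 and the median was 0.12 (0.35 over the si-SMAD3 arrays alone and 0.05 over the si-Control arrays alone). FOXO1, a transcription factor held out of the nucleus by growth-factor signalling, was called higher. Its levels were 8.85 with si-SMAD3 and 7.52 with si-Control in replicate 2, against 7.50 (si-SMAD3) and 6.63 (si-Control) in replicate 1, and 7.36 (si-SMAD3) and 6.92 (si-Control) in replicate 3. The si-Control array of replicate 2, at 7.52, was just above the highest of the others, at 7.50. A second probe set of the gene differed by 0.12, and the mean of both by 0.60. TOB1, an antiproliferative protein, differed by 1.0 ± 0.21 and CCNG2, a cyclin of resting cells, by 0.90 ± 0.19, or by 0.32 where both of its probe sets were averaged. CDKN1A, the p21 inhibitor, had levels of 10.01 with si-SMAD3 and 8.19 with si-Control in replicate 2, against 9.55 (si-SMAD3) and 8.86 (si-Control) in replicate 1, and 9.26 (si-SMAD3) and 9.72 (si-Control) in replicate 3, so it was highest on 1 replicate 2 array and lowest on the other. CDKN1C, the p57 inhibitor, differed by 0.21 ± 0.19.

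**Figure D1:**
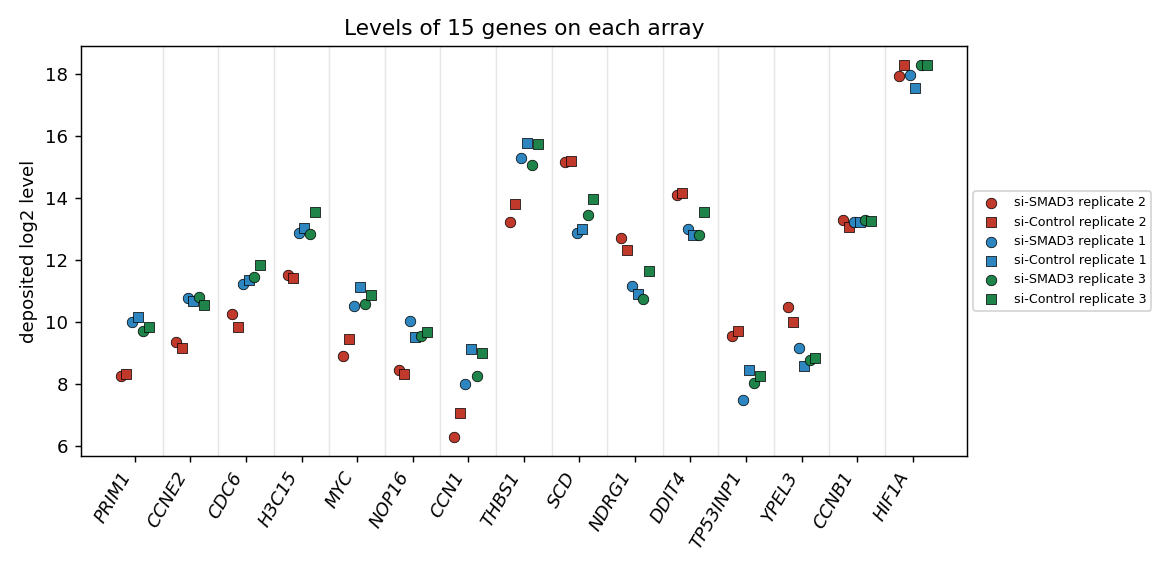
Deposited log2 levels of 15 genes on each of the 6 arrays, where color marks the replicate, circles are si-SMAD3 arrays and squares si-Control arrays. PRIM1, CCNE2, CDC6, H3C15, MYC, NOP16, CCN1 and THBS1 have both replicate 2 arrays below the other 4, SCD, NDRG1, DDIT4, TP53INP1 and YPEL3 have them above, and CCNB1 and HIF1A show no such separation.

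Histone genes were lower as well. All 49 measured replication-dependent core histones, of 60 listed, had a difference below 0, with a median of -0.68. Without overlap 43 lay below all other arrays (9.57% of all genes), and 9 were called lower (0.631%). By class the median was -0.79 for 11 H2A genes, -0.87 for 16 H2B genes, -0.79 for 10 H3 genes and -0.60 for 12 H4 genes. The largest difference was that of H3C15, with levels of 11.53 with si-SMAD3 and 11.41 with si-Control in replicate 2, against 12.89 (si-SMAD3) and 13.04 (si-Control) in replicate 1, and 12.85 (si-SMAD3) and 13.55 (si-Control) in replicate 3. The difference was -1.61 ± 0.23 and the groups did not overlap. Histone genes of a class are near-identical copies, so a probe set can carry signal from several of them and the members are not independent. The sequence before the H3C15 start (RefSeq, GRCh38.p14, chr1:149852358-149852607, plus strand) is shown because the gene led its list, with the CCAAT boxes in capitals.
H3C15: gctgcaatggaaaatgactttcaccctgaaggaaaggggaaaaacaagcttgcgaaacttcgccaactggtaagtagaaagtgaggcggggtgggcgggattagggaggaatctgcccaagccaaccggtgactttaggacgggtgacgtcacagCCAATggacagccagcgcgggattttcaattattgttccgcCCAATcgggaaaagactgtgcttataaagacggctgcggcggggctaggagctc
CCAAT, searched on both strands, lay before 53 of 68 histone genes (77.9%) and before all 11 of the called ones, linker histones included, against 33.0% of all promoters.

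The remaining called core histones were H2AC15 (-1.19 ± 0.21), H2BC11 (-1.18 ± 0.20), H3C2 (-1.10 ± 0.21), H2BC14, H2BC3, H2AC11, H2AC8 and H2BC13. H2BC13 had 7.52 with si-SMAD3 and 6.78 with si-Control in replicate 2, against 7.96 (si-SMAD3) and 7.98 (si-Control) in replicate 1, and 8.0 (si-SMAD3) and 8.69 (si-Control) in replicate 3, and without the si-Control array of replicate 2 its difference was -0.46. H2BC3 had a difference of -1.08 ± 0.32, and without that array -0.56. Linker histone genes were also lower, with 5 of 6 below all other arrays (9.57% of all genes) and a median of -0.71. H1-5 had levels of 13.43 with si-SMAD3 and 13.10 with si-Control in replicate 2, against 14.37 (si-SMAD3) and 14.41 (si-Control) in replicate 1, and 14.41 (si-SMAD3) and 14.95 (si-Control) in replicate 3, a difference of -1.27 ± 0.24. H1-3 differed by -1.25 ± 0.19 and H1-2 by -0.77 ± 0.22.

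Replacement histone variants, which are also made outside S phase, split into 4 genes above and 4 below 0, with a median of -0.01. Of the 8 measured, 2 lay below all other arrays, against 9.57% of all genes. H2AX, the variant marked at DNA breaks, was 1 of 2 below all other arrays, at 13.20 with si-SMAD3 and 13.20 with si-Control in replicate 2, against 13.96 (si-SMAD3) and 14.12 (si-Control) in replicate 1, and 13.99 (si-SMAD3) and 14.35 (si-Control) in replicate 3. The second was MACROH2A1 (-0.34 ± 0.19, and -0.16 without the si-Control array of replicate 2), and H2AJ differed by 0.34 ± 0.28. The 12 factors of histone gene transcription and mRNA processing had a median of -0.13 and no member outside the other arrays. SLBP, which binds the stem-loop of histone mRNA, differed by -0.68 ± 0.23 with overlap, and NPAT, the coactivator of histone genes, by -0.49 ± 0.29.

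MYC and genes of ribosome assembly were lower. MYC had levels of 8.92 with si-SMAD3 and 9.46 with si-Control in replicate 2, against 10.53 (si-SMAD3) and 11.15 (si-Control) in replicate 1, and 10.58 (si-SMAD3) and 10.89 (si-Control) in replicate 3, a difference of -1.60 ± 0.19. MXI1, a repressor of the MYC network that competes for its partner MAX, had 11.68 with si-SMAD3 and 11.80 with si-Control in replicate 2, against 10.44 (si-SMAD3) and 10.11 (si-Control) in replicate 1, and 10.17 (si-SMAD3) and 10.91 (si-Control) in replicate 3, a difference of 1.33 ± 0.25. These 2 genes differed in opposite directions, and neither overlapped the other arrays. They were the only called members among 7 measured genes of MYC and its network. Of these 7 genes, 4 had a difference above 0 and 3 below, and the median was 0.21. Of 36 nucleolar and ribosome assembly factors, 34 had a difference below 0 and the median was -0.66. Of these factors 27 lay below all other arrays (9.57% of all genes), and 5 were called lower (0.631%). NOP16, a factor of the large subunit, had 8.47 with si-SMAD3 and 8.34 with si-Control in replicate 2, against 10.04 (si-SMAD3) and 9.51 (si-Control) in replicate 1, and 9.57 (si-SMAD3) and 9.70 (si-Control) in replicate 3, a difference of -1.30 ± 0.21. RRS1 (-1.16 ± 0.27), NOLC1 (-1.08 ± 0.20), WDR75 (-1.03 ± 0.21) and RCL1 (-1.02 ± 0.23) were the remaining called factors, and without the si-Control array of replicate 2 the difference of RCL1 was -0.63.

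All 22 measured translation factors and enzymes of nucleotide and polyamine synthesis had a difference below 0, with a median of -0.55. SRM, spermidine synthase, had 13.05 with si-SMAD3 and 12.60 with si-Control in replicate 2, against 13.88 (si-SMAD3) and 14.21 (si-Control) in replicate 1, and 14.17 (si-SMAD3) and 14.23 (si-Control) in replicate 3. CAD, which starts pyrimidine synthesis, differed by -1.26 ± 0.25 and CTPS1, CTP synthase, by -0.98 ± 0.19. Among ribosomal protein genes, whose products build the ribosome itself, 14 of 18 measured had a difference above 0, none was called, and the median was 0.15 (0.26 over the si-SMAD3 arrays alone and -0.05 over the si-Control arrays alone), with RPL22 at 0.28 ± 0.18 and RPL5 at -0.25 ± 0.33.

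**Figure D2:**
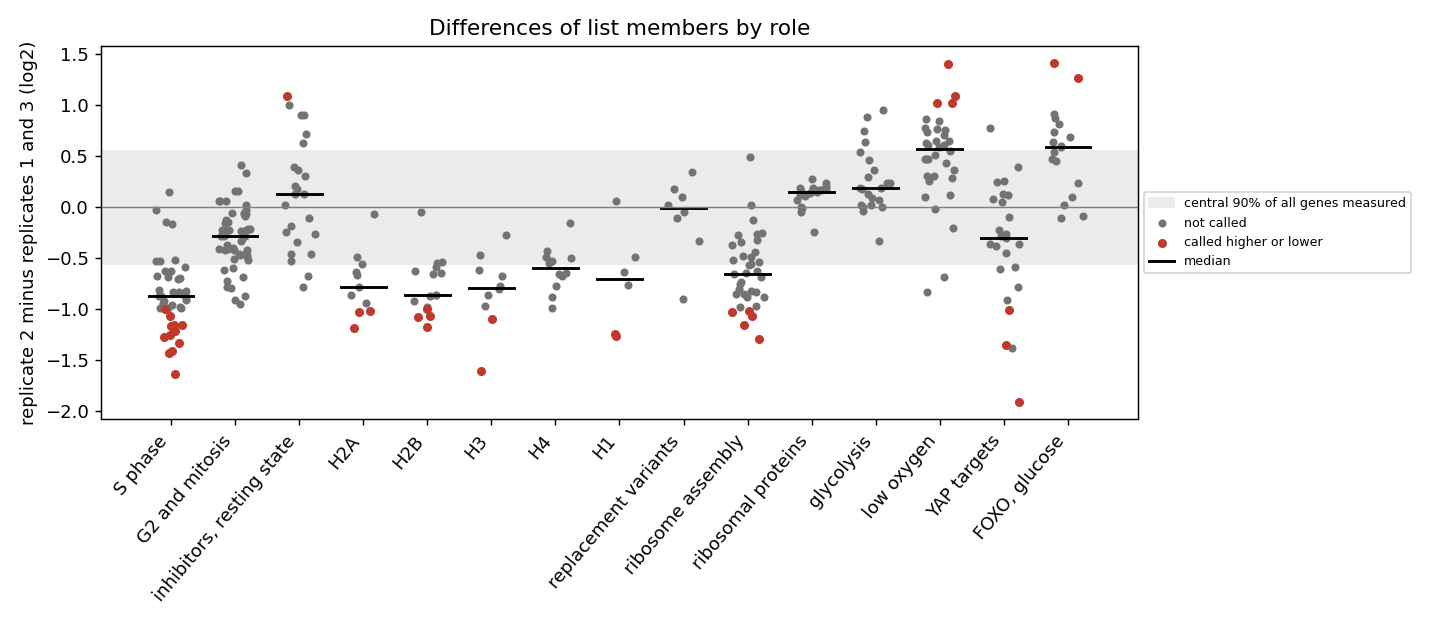
Difference of replicate 2 from replicates 1 and 3 (log2, y axis) for each measured member of 15 roles (x axis), with called genes in red, medians as bars and the central 90% of single genes, -0.56 to 0.55, in grey. The medians are -0.88 for S phase genes, -0.66 for ribosome assembly, 0.57 for low oxygen and 0.59 for the FOXO list.

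Genes of low oxygen and glycolysis were mostly higher. Of 66 measured genes 59 had a difference above 0, 5 were called higher (0.539% of all genes), and the median was 0.40. Above all other arrays lay 20 (9.38% of all genes), and below them 1 (9.57%). The 34 genes of adaptation to low oxygen had a median of 0.57, and the 22 glycolytic enzymes and regulators 0.18 (0.35 over the si-SMAD3 arrays alone and 0.11 over the si-Control arrays alone). The glycolysis median was 0.33 against replicate 1 alone and 0.08 against replicate 3 alone. For all 66 genes it was 0.51 against replicate 1 and 0.21 against replicate 3. The glycolysis list mean was higher on the si-Control array of replicate 3 (0.20) than on the si-SMAD3 array of replicate 2 (0.14). NDRG1, a stress-responsive protein, had levels of 12.72 with si-SMAD3 and 12.33 with si-Control in replicate 2, against 11.16 (si-SMAD3) and 10.92 (si-Control) in replicate 1, and 10.76 (si-SMAD3) and 11.65 (si-Control) in replicate 3, a difference of 1.40 ± 0.28. DDIT4, an inhibitor of the growth kinase mTORC1, had 14.09 with si-SMAD3 and 14.18 with si-Control in replicate 2, against 13.02 (si-SMAD3) and 12.82 (si-Control) in replicate 1, and 12.82 (si-SMAD3) and 13.54 (si-Control) in replicate 3, a difference of 1.09 ± 0.24. In both genes the si-Control array of replicate 3 was the highest of the other 4. The sequence before the DDIT4 start (RefSeq, GRCh38.p14, chr10:72273674-72273923, plus strand) is shown with its ACGTG, the core of the hypoxia response element, in capitals.
DDIT4: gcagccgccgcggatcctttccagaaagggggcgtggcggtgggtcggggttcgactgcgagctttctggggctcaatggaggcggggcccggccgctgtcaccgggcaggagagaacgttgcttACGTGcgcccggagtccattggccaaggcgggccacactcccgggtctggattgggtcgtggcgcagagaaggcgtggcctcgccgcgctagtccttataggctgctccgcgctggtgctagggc
ACGTG, on both strands, lay before 27 of 56 genes of the list (48.2%), against 18.7% of all promoters. Of its 4 called genes with a promoter in the table, 1, DDIT4, held it.

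ADM, the vasodilator adrenomedullin (1.02 ± 0.23), and CA12, a membrane carbonic anhydrase (1.01 ± 0.21), were called as well. EPAS1, the HIF-2 alpha subunit, had 12.54 with si-SMAD3 and 12.01 with si-Control in replicate 2, against 11.16 (si-SMAD3) and 11.14 (si-Control) in replicate 1, and 11.33 (si-SMAD3) and 11.46 (si-Control) in replicate 3, a difference of 1.0 ± 0.22. HIF1A, the HIF-1 alpha subunit, which is mainly controlled as a protein, had 17.95 with si-SMAD3 and 18.29 with si-Control in replicate 2, against 17.96 (si-SMAD3) and 17.54 (si-Control) in replicate 1, and 18.31 (si-SMAD3) and 18.31 (si-Control) in replicate 3, with full overlap. VEGFA, the endothelial growth factor, was higher on both arrays (0.84 ± 0.19). PGK1, phosphoglycerate kinase, had 15.48 with si-SMAD3 and 16.05 with si-Control in replicate 2, against 14.42 (si-SMAD3) and 14.61 (si-Control) in replicate 1, and 14.64 (si-SMAD3) and 15.59 (si-Control) in replicate 3, so the si-Control array of replicate 3 fell inside the replicate 2 range. SLC2A1, the GLUT1 glucose transporter, differed by 0.30 ± 0.24 with overlap. LDHA, lactate dehydrogenase A, and GAPDH, a glycolytic dehydrogenase, stood at the array ceiling of 19.93 on all arrays, so a difference could not be seen.

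The low oxygen list also separated the other arrays from each other. Its mean deviation from the 6-array average was 0.34 with si-SMAD3 and 0.30 with si-Control in replicate 2, against -0.25 (si-SMAD3) and -0.29 (si-Control) in replicate 1, and -0.25 (si-SMAD3) and 0.14 (si-Control) in replicate 3. For this list the si-Control array of replicate 3 lay apart from the other arrays of its group and nearer to replicate 2. That array was not near replicate 2 throughout. For core histones it was the farthest from it, at 0.48 against -0.47 (si-SMAD3) and -0.52 (si-Control) in replicate 2. Its positive and negative control probe sets were also the highest of the 6 arrays.

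Genes of the FOXO and glucose response were higher. Of 18 measured 16 had a difference above 0, 10 lay above all other arrays (9.38% of all genes), and the median was 0.59. YPEL3, a growth-suppressing protein, had 10.50 with si-SMAD3 and 10.02 with si-Control in replicate 2, against 9.17 (si-SMAD3) and 8.59 (si-Control) in replicate 1, and 8.79 (si-SMAD3) and 8.84 (si-Control) in replicate 3, a difference of 1.41 ± 0.21. PNRC1, a nuclear receptor coactivator, differed by 1.26 ± 0.20, ARRDC3, an arrestin, by 0.91 ± 0.30, and TXNIP, an inhibitor of glucose uptake and thioredoxin, by 0.74 ± 0.23. TP53INP1, a stress protein that promotes autophagy, had 9.56 with si-SMAD3 and 9.73 with si-Control in replicate 2, against 7.50 (si-SMAD3) and 8.45 (si-Control) in replicate 1, and 8.05 (si-SMAD3) and 8.28 (si-Control) in replicate 3. It was the 1 called member of the p53 target list, in which 12 of 18 genes had a difference below 0 and the median was -0.14 (-0.01 over the si-SMAD3 arrays alone and -0.05 over the si-Control arrays alone).

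YAP and TEAD targets were more mixed. Of 25 measured 17 had a difference below 0, and the median was -0.31. Of these 25 targets 7 lay below all other arrays (9.57% of all genes), and 3 were called lower (0.631%). CCN1 (CYR61), a matricellular protein and early YAP target, had 6.29 with si-SMAD3 and 7.08 with si-Control in replicate 2, against 8.0 (si-SMAD3) and 9.13 (si-Control) in replicate 1, and 8.28 (si-SMAD3) and 9.02 (si-Control) in replicate 3, a difference of -1.92 ± 0.19. CCN2 (CTGF), its close relative, had 5.63 with si-SMAD3 and 5.98 with si-Control in replicate 2, against 6.61 (si-SMAD3) and 6.89 (si-Control) in replicate 1, and 6.79 (si-SMAD3) and 6.96 (si-Control) in replicate 3, a difference of -1.01 ± 0.18. Within every replicate both genes were lower with si-SMAD3 than with si-Control. FJX1, a secreted protein of the four-jointed family, was the third called target (-1.36 ± 0.22). The CCN2 upstream sequence (RefSeq, GRCh38.p14, chr6:131951373-131951622, minus strand) is shown because it holds 3 copies of GGAATG, the TEAD motif, in capitals.
CCN2: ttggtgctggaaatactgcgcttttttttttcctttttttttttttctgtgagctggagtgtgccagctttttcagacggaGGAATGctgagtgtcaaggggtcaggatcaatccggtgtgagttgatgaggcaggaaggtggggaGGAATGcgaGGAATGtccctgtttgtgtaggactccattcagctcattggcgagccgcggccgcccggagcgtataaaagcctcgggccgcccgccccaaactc
GGAATG, on both strands, lay before 5 of 17 targets with a promoter in the table (29.4%), 1 of the 2 called ones among them, against 11.9% of all promoters.

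YAP1 itself was higher, at 12.47 with si-SMAD3 and 12.77 with si-Control in replicate 2, against 12.23 (si-SMAD3) and 12.28 (si-Control) in replicate 1, and 11.80 (si-SMAD3) and 12.44 (si-Control) in replicate 3, a difference of 0.44 ± 0.20. TEAD1 differed by 0.30 ± 0.20 and TEAD2 by 0.19 ± 0.22, both with overlap. The list of Hippo kinases, scaffolds and other regulators upstream of YAP had a median of -0.22. Of its 15 measured genes 4 lay below all other arrays, against 9.57% of all genes. Among these 4 were NF2, the merlin scaffold, which restrains YAP (-0.78 ± 0.30), and AJUBA, which inhibits the LATS kinases and so acts the other way (-0.79 ± 0.24). Without the si-Control array of replicate 2 the difference was -0.21 for NF2 and -0.40 for AJUBA, and without the si-SMAD3 array it was -1.36 for NF2. MRTF and SRF targets, a list that overlaps with YAP targets in function, had a median of -0.18. It was 0.03 over the si-SMAD3 arrays alone and -0.34 over the si-Control arrays alone. Of the 26 measured genes of this list, 1 was called lower (0.631% of all genes) and 1 higher (0.539%), and the highest difference was 1.48. THBS1, thrombospondin 1, was the called lower member, at 13.23 with si-SMAD3 and 13.82 with si-Control in replicate 2, against 15.30 (si-SMAD3) and 15.77 (si-Control) in replicate 1, and 15.06 (si-SMAD3) and 15.75 (si-Control) in replicate 3.

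**Figure D3:**
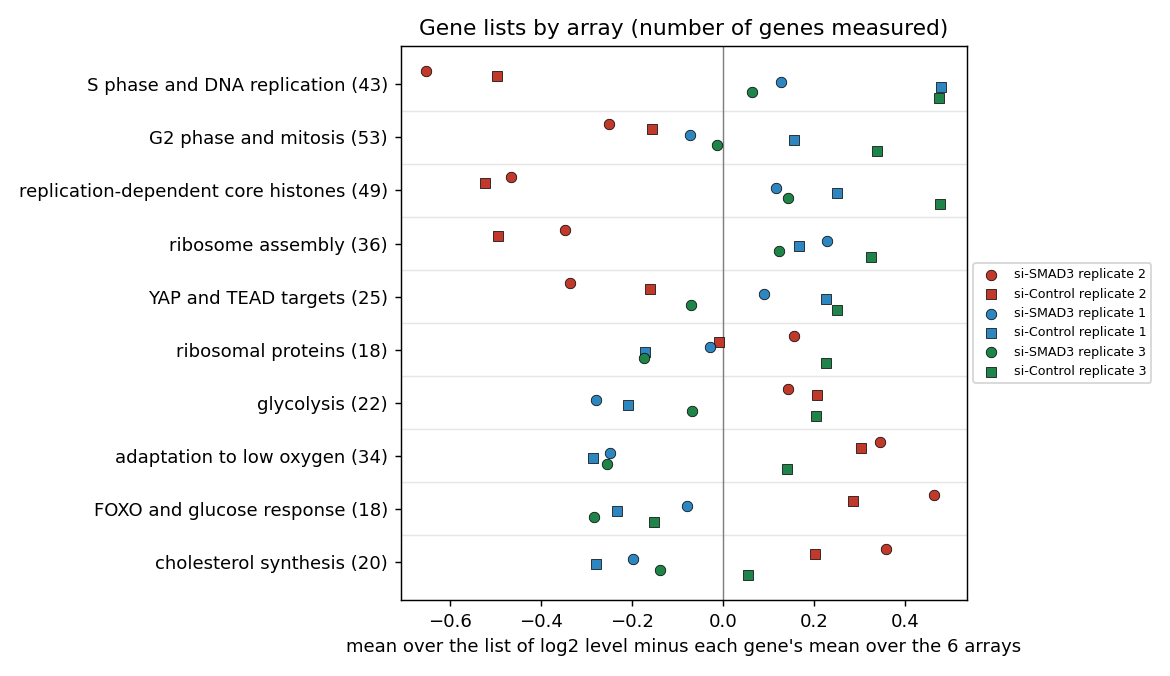
Mean over each list of the log2 level minus the gene's mean over the 6 arrays (x axis), for 10 lists (rows, with the number of measured genes), with color for replicate, circles for si-SMAD3 and squares for si-Control. The S phase, core histone and ribosome assembly means of replicate 2 lie left of all others, and the low oxygen, FOXO and cholesterol means lie right, with the si-Control array of replicate 3 nearest to them in low oxygen and cholesterol.

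Sterol genes were higher and genes of the amino acid response lower. Of 20 cholesterol synthesis genes 18 had a difference above 0, and 11 lay above all other arrays (9.38% of all genes). Their median was 0.35 (0.44 over the si-SMAD3 arrays alone and 0.21 over the si-Control arrays alone). SREBF2, the transcription factor of this pathway, had 11.13 with si-SMAD3 and 10.84 with si-Control in replicate 2, against 9.20 (si-SMAD3) and 9.50 (si-Control) in replicate 1, and 9.58 (si-SMAD3) and 10.23 (si-Control) in replicate 3. INSIG1, its sterol-dependent retention factor, differed by 1.18 ± 0.32. SCD, stearoyl-CoA desaturase, had 15.16 with si-SMAD3 and 15.20 with si-Control in replicate 2, against 12.87 (si-SMAD3) and 13.01 (si-Control) in replicate 1, and 13.46 (si-SMAD3) and 13.98 (si-Control) in replicate 3, a difference of 1.85 ± 0.31. The replicate 2 values were close together and well above the rest, and replicate 3 lay above replicate 1. The pseudogene SCDP1, which can share signal with SCD, differed by 1.85 ± 0.44, and OLMALINC, the lncRNA next to SCD in the RefSeq order of GRCh38.p14, by 1.69 ± 0.25.

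In the ATF4 branch of the amino acid response, 15 of 21 genes had a difference below 0. Of these genes 3 were called lower (0.631% of all genes), and the median of the list was -0.36. That median was -0.14 over the si-SMAD3 arrays alone and -0.74 over the si-Control arrays alone. MTHFD2, a mitochondrial enzyme of the folate cycle, had 10.95 with si-SMAD3 and 11.56 with si-Control in replicate 2, against 13.68 (si-SMAD3) and 13.96 (si-Control) in replicate 1, and 12.31 (si-SMAD3) and 12.94 (si-Control) in replicate 3, a difference of -1.97 ± 0.41. ASNS, asparagine synthetase (-1.19 ± 0.42), and SLC3A2, the heavy chain of amino acid exchangers (-1.05 ± 0.27), were called too. Replicate 3 lay between replicates 2 and 1 for all 3 genes. All 11 aminoacyl-tRNA synthetases had a difference below 0, with a median of -0.45. Of 10 metallothioneins, which bind zinc and copper, 7 lay below all other arrays (9.57% of all genes), MT1X with -1.04 ± 0.24.

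The next 4 lists were chosen after the values were seen. In recombination and Fanconi repair, 21 of 23 genes had a difference below 0, 9 were called lower (0.631% of all genes) and the median was -0.76. Among them XRCC2 (-1.45 ± 0.21), the nuclease EXO1 (-1.37 ± 0.21), RAD54L (-1.25 ± 0.20) and BRCA1 (-1.19 ± 0.18) are factors of homologous recombination. DDIAS, an anti-apoptotic protein of the same list, had 6.84 with si-SMAD3 and 6.81 with si-Control in replicate 2, against 8.17 (si-SMAD3) and 8.97 (si-Control) in replicate 1, and 8.77 (si-SMAD3) and 8.90 (si-Control) in replicate 3. In folate metabolism, 11 of 14 genes had a difference below 0, with the folate carrier SLC19A1 at -1.46 ± 0.23, a value of -0.57 where all of its probe sets were averaged. In fatty acid synthesis, 14 of 19 genes had a difference above 0. Of the EGF receptor family, EGFR (-1.40 ± 0.20) and its ligand EREG (-1.78 ± 0.18) were called lower, while the ligand EPGN differed by 0.95 ± 0.22.

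The largest differences of called genes were not all in these lists. CAMP, the antimicrobial peptide cathelicidin, led the called higher genes, at 9.66 with si-SMAD3 and 9.53 with si-Control in replicate 2, against 7.56 (si-SMAD3) and 6.50 (si-Control) in replicate 1, and 7.23 (si-SMAD3) and 7.39 (si-Control) in replicate 3, a difference of 2.42 ± 0.28. GAL3ST1, a sulfotransferase of glycolipids (1.87 ± 0.32), SLCO4C1, an organic anion transporter (1.70 ± 0.21), and PADI3, a peptidylarginine deiminase measured by a probe set that its ID gives as unmapped (1.55 ± 0.20), followed, with LINC01151, RASSF4, LTBP3, FILIP1L, MSMP, OLFML2B and ZNF114 between 1.42 and 1.73. LINC01111 led the called lower genes, at 3.84 with si-SMAD3 and 5.22 with si-Control in replicate 2, against 6.06 (si-SMAD3) and 7.05 (si-Control) in replicate 1, and 6.59 (si-SMAD3) and 7.34 (si-Control) in replicate 3, where the first value is below the floor of 3.93. LY6K, AK5, ANXA3, KCNQ5 and RGS4, with MIR548O2, had differences between -1.88 and -1.52, and that of MIR548O2 was -1.11 without the si-SMAD3 array of replicate 2. SPRY1, a feedback inhibitor of growth-factor signalling, was higher by 1.19 ± 0.31, and the cytokine IL1B by 1.04 ± 0.27. Without the si-SMAD3 array of replicate 2 the difference of IL1B was 0.52, and without the si-Control array that of ZNF114 was 0.78.

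Small RNA genes, listed by symbol, had medians of -0.01 for 89 C/D box snoRNA genes, -0.05 for 70 H/ACA box snoRNA genes and -0.01 for 692 microRNA genes. Of 8 measured mitochondrially encoded transcripts 4 stood at the array ceiling on all arrays, so no difference could be read from that list.

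Thyroid and epithelial markers were set against the label of the line. PAX8, a thyroid transcription factor, lay between 13.31 and 13.99 on all arrays and differed by 0.46 ± 0.19, while TG, TSHR and SLC5A5, genes of thyroid hormone synthesis, were below the floor. In all, 6 of 18 thyroid markers were measured. Of 15 epithelial and carcinoma markers 10 were measured, with a median difference of -0.04. The epithelial keratin KRT8 lay between 14.66 and 15.33 and differed by -0.48 ± 0.19, and its partner KRT18 differed by -0.52 ± 0.26. The epithelial adhesion genes CDH1, between 2.92 and 3.36, and EPCAM, between 3.03 and 3.84, were below the floor on all arrays. Of immune markers 5 of 13 were measured, of endothelial markers 4 of 10 and of fibroblast markers 10 of 12. The leukocyte marker PTPRC lay between 3.29 and 4.42 on all arrays, at the floor. LUM, lumican, a matrix protein listed with fibroblasts, had 10.07 with si-SMAD3 and 9.57 with si-Control in replicate 2, against 8.78 (si-SMAD3) and 8.44 (si-Control) in replicate 1, and 8.51 (si-SMAD3) and 8.55 (si-Control) in replicate 3, and the fibroblast list as a whole had 5 members above 0 and 5 below. In these bulk samples, fewer cells in S phase and less S phase RNA per cell cannot be told apart.

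Control probe sets were read beside these results. The exon-based positive controls averaged 12.62 with si-SMAD3 and 12.47 with si-Control in replicate 2, against 12.63 (si-SMAD3) and 12.58 (si-Control) in replicate 1, and 12.57 (si-SMAD3) and 12.81 (si-Control) in replicate 3. The si-Control array of replicate 2 was the lowest and that of replicate 3 the highest, and the negative controls, at 4.41 with si-SMAD3 and 4.28 with si-Control in replicate 2, against 4.38 (si-SMAD3) and 4.37 (si-Control) in replicate 1, and 4.38 (si-SMAD3) and 4.54 (si-Control) in replicate 3, had the same lowest and highest array. The median difference of the S phase genes was -0.75 over the si-SMAD3 arrays alone and -1.0 over the si-Control arrays alone. Whether the intensity of the arrays bears on these differences was not tested.

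Each siRNA group gives its own comparison of replicate 2 with the other replicates, and the groups share no array. Replicate 2 was singled out because its arrays stood apart in these same values. Agreement between the groups is therefore part of the description and is no independent replication. Over the si-SMAD3 arrays, 426 genes were higher (2.07%) and 233 lower (1.13%) where 1 replicate 2 array stood outside 2 others by the same size. Over the si-Control arrays, 292 were higher (1.42%) and 465 lower (2.26%). Genes higher in both numbered 55, which is 12.9% of the si-SMAD3 genes and 18.8% of the si-Control genes, and 54 were lower in both, 23.2% and 11.6%. By the same rule, 8 genes called higher over the si-SMAD3 arrays were called lower over the si-Control arrays, and 5 the reverse. The median of ribosome assembly was -0.52 over the si-SMAD3 arrays and -0.78 over the si-Control arrays. That of core histones was -0.60 over the si-SMAD3 arrays and -0.87 over the si-Control arrays, and that of the FOXO list was 0.69 and 0.44 over the same arrays.

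**Figure D4:**
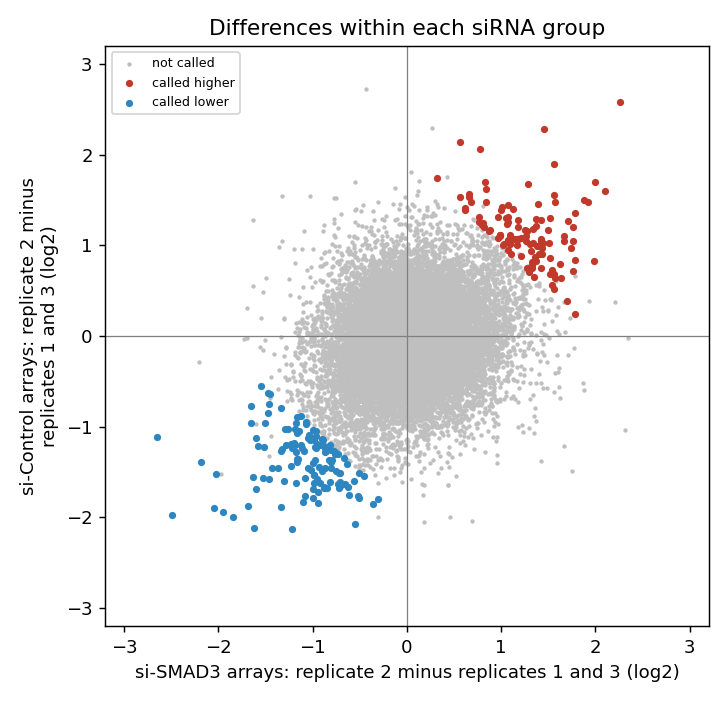
Difference of replicate 2 from replicates 1 and 3 in the si-SMAD3 arrays (x axis, log2) and in the si-Control arrays (y axis, log2) for 20589 genes, 1 lying beyond the axes, with genes called higher in red and lower in blue. The called genes fill the upper right and lower left corners because the call asks for both arrays, and most other genes scatter around 0.

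Replicates 3 and 1 were compared with a test. Replicate 2 had been singled out as the one that stood apart in these values. That choice favours a small difference between replicates 1 and 3, so the count of genes is not free of it. No gene passed an adjusted p of 0.05 in limma (0% of 20590), where 952 genes had an unadjusted p under 0.05 and no adjusted p was below 0.97. Letting limma's variance follow the intensity, with robust fitting, also gave 0 genes, with 970 at an unadjusted p under 0.05. In simulated data the test recovered 39.2% of differences of 2 on the log2 scale and 0% of those of 1. The simulation planted 200 genes with sizes from 1 to 4 together, and the larger ones ease the adjustment for the smaller. The rate therefore need not hold in these data, where CHAC1, at -2.11, had an adjusted p of 0.97 in limma. The median of this difference was 0.04 for all genes. It was -0.04 for S phase genes, 0.11 for core histones, -0.02 for ribosome assembly and -0.04 for the FOXO list. It was 0.24 for the low oxygen list, 0.21 for cholesterol synthesis, with 17 of 20 genes above 0, and 0.29 for fatty acid synthesis.

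In the ATF4 branch of the amino acid response the median of replicate 3 minus replicate 1 was -0.39. Of its 21 genes 8 had an unadjusted p under 0.05 in limma, against 952 of 20590 genes, and none passed after adjustment. CHAC1, which degrades glutathione, had levels of 5.57 with si-SMAD3 and 5.23 with si-Control in replicate 3, against 7.45 with si-SMAD3 and 7.55 with si-Control in replicate 1, a difference of -2.11 ± 0.25. In replicate 2 its level was 5.07 with si-SMAD3 and 5.29 with si-Control, near replicate 3. Its adjusted p in limma was 0.97 with all 6 arrays and 0.042 with the replicate 1 and 3 arrays alone. Leaving out either replicate 2 array is that same fit, because the replicate 2 term then takes up the array that remains. SLC7A11, the cystine transporter, had 10.20 with si-SMAD3 and 10.90 with si-Control in replicate 3, against 11.75 with si-SMAD3 and 12.69 with si-Control in replicate 1, a difference of -1.67. PGRMC1, a membrane progesterone receptor component outside the list, differed by -1.88. Replicate 1 was thus the high one for CHAC1 and SLC7A11.

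**Figure D5:**
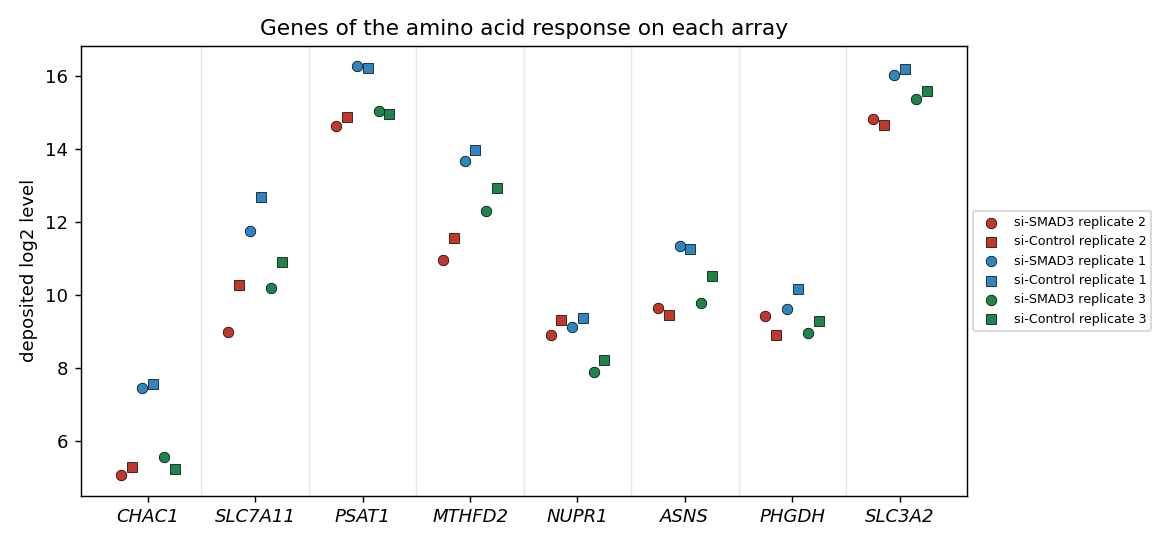
Deposited log2 levels (y axis) of 8 genes of the amino acid response on each array, with color for replicate, circles for si-SMAD3 and squares for si-Control. Replicate 1 is highest for CHAC1, SLC7A11, PSAT1 and MTHFD2, and replicate 3 lies at or near replicate 2 for CHAC1 and PSAT1.

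SMAD3, the targeted gene, checked the labels in all replicates. Its level was 10.03 with si-SMAD3 and 14.21 with si-Control in replicate 2, against 10.58 (si-SMAD3) and 14.20 (si-Control) in replicate 1, and 10.27 (si-SMAD3) and 14.67 (si-Control) in replicate 3. The knockdown was -4.06 ± 0.20 with a replicate 2 term in the fit (adjusted p = 0.00079, limma), lower in 3 of 3 pairs, and it was the 1 gene past the threshold (0.00486% of genes). The siRNA difference of SMAD3 in replicate 2 minus that in the others was -0.18 ± 0.45 (adjusted p = 0.98, limma). With an intensity trend and robust variances limma called 32 genes for the siRNA, 29 lower and 3 higher. S phase genes were lower with si-SMAD3 in each replicate, with list means of -0.65 with si-SMAD3 and -0.50 with si-Control in replicate 2, 0.13 (si-SMAD3) and 0.48 (si-Control) in replicate 1, and 0.06 (si-SMAD3) and 0.48 (si-Control) in replicate 3, and none passed the siRNA test.

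The siRNA difference itself was set between replicate 2 and the others, gene by gene. A probe set annotated as MIR548AI, a microRNA gene, was the 1 past the threshold (0.00486% of genes). Its ID places it on chromosome 16, while RefSeq (GRCh38.p14) has MIR548AI on chromosome 6, so the symbol may be wrong. Its level was 12.03 with si-SMAD3 and 2.82 with si-Control in replicate 2, against 10.21 (si-SMAD3) and 9.63 (si-Control) in replicate 1, and 10.28 (si-SMAD3) and 10.78 (si-Control) in replicate 3, so 1 array stood far below the other 5. The difference of differences was 9.16 ± 0.65 (adjusted p = 0.043, limma), and with no filter on low genes it was 0.074. A second probe set of this name, with a chromosome 6 ID, lay between 5.50 and 7.21 on all arrays, with a replicate 2 difference of 0.13. The test recovered 0% of simulated differences of up to 4, so smaller differences of differences could not be seen with 1 array of each siRNA in replicate 2.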

How the data were processed

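The 6 arrays were analysed from the deposited series table of log2 values, which the authors made, per the submitters' processing notes, with Affymetrix Expression Console and RMA (versions not given in the sources used here). Array medians lay between 3.94 and 3.96, so the table was kept as deposited, and values stop at 19.93. Of 138745 probe sets, 2995 are controls, 36176 had 1 gene symbol, 1119 had several and 101450 were unnamed. Symbols were updated through RefSeq, the probe set with the highest mean stood for a gene, and 20590 of 33458 genes with a mean of at least 3.93 were tested. Differences and tests came from limma 3.58.1 in R 4.3.3 with siRNA as covariate, Benjamini-Hochberg adjustment and an adjusted p of 0.05. The design text ties each replicate to its own experiment time, so replicate numbers pair the arrays. Deviations of same-numbered arrays correlated across genes at r = 0.15, 0.22 and 0.05 for replicates 1, 2 and 3. Nothing says that arrays of a replicate came from separate cultures, and p-values measure only the spread between these samples. The tests were run on simulated data with 200 planted genes.

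The members, the replicate 2 contrast and the gene lists were chosen with earlier results of these data known. Named genes were the 15 largest differences each way among called genes, up to 5 called members of each list by size (filled to 3), the leading genes of each test, and a set always given. Other genes of a list are named as called members or as examples chosen after their values were seen. CA9, one of that set, has no probe set of its own here. The E2F motif was added after the other motifs. Promoters are the 250 bases before the start in the RefSeq table of GRCh38.p14. The 6 arrays limit the precision, and no column was left out.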

Additional observations from a re-analysis of the deposited data

Results flagged for a closer look

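Of 249 quantities checked for an array far from the other 3 among replicates 1 and 3, 12 stood apart. That share is close to the 5% that chance would give. The si-Control array of replicate 3 was the high one for the low oxygen list mean (0.14, against -0.29 to -0.25 on the other 3), H1-5 (14.95), H2BC13 (8.69), KLF2 (6.78), MT1X (15.34) and ND2 (15.71). The si-Control array of replicate 1 was the low one for the NF-kB list mean (-0.13) and RCL1 (6.90) and the high one for IFIT1 (6.36). The si-SMAD3 array of replicate 3 was the low one for H1-3 (11.62). The si-SMAD3 array of replicate 1 was the low one for SRM (13.88) and the high one for STK4 (9.04). The probe set annotated as MIR548AI, whose ID gives another chromosome than RefSeq does for that gene, is listed because its siRNA difference differed between replicate 2 and the others by 9.16 in limma's test of the difference (adjusted p = 0.043). Its level with si-Control in replicate 2 was 2.82, and the cause was not tested.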

How the results depend on the processing

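The number of called genes depends on the rule: 823 higher and 967 lower at a size of 0.5, 1 and 1 at a size of 2, 335 and 335 over all probe sets, 426 and 233 over the si-SMAD3 arrays only, 292 and 465 over the si-Control arrays only, and 201 higher against replicate 1 only. Leaving out 1 array gave 114 to 408 higher and 125 to 435 lower. The counts moved by over 1.5 times without the si-SMAD3 array of replicate 2 (281 higher, 435 lower), without its si-Control array (408 and 223), where 1 array alone must stand outside, and without the si-Control array of replicate 3 (171 higher). The FOXO median was 0.74 with a mean of at least 6, 0.69 over si-SMAD3 and 0.44 over si-Control arrays, and 0.44 to 0.69 with 1 array left out. Ribosome assembly had -0.52 over si-SMAD3 and -0.78 over si-Control arrays (-0.78 to -0.52 with 1 left out), and core histones -0.87 over si-Control arrays and -0.85 against replicate 3 (-0.87 to -0.60 with 1 left out). Medians turned sign over the si-SMAD3 arrays for MRTF and SRF targets (0.032, and -0.34 to 0.032 with 1 array left out), immediate early factors (0.047, -0.24 to 0.047) and ATF6 and XBP1 genes (0.028, -0.30 to 0.028), for the last also against replicate 1 (0.054), and over the si-Control arrays for NRF2 targets (-0.12, -0.12 to 0.40) and nuclear respiratory chain subunits (-0.021, -0.021 to 0.36). In total 770 of 914 alternative list medians stayed within 1 SD of the reported value. In limma, replicate 3 minus replicate 1 called 1 gene on those 4 arrays with no replicate block, and 0 to 1 with 1 array left out. The interaction called 0 genes with no filter. The siRNA test called 32 with a trend and robust variances. With the replicate number as a block the siRNA test and the interaction each called the same 1 gene as reported. The causes were not tested. The 2 replicate 2 arrays limit every difference given here.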
